A study of Mus musculus with 4 samples.

Results

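The tripartite motif (TRIM) family was described in mouse acute myeloid leukemia cells. Members were the rows of the deposited expression table whose symbol starts with Trim and a digit. This gave 68 of the 24497 mouse entries, whatever their values. The cells carried NRAS and AML1-ETO9a (AE9a), a truncated fusion protein that drives leukemia in mice, and came from hematopoietic stem cells of the bone marrow of wild-type (WT) or Tet2-/- mice. The Tet2 deletion removes internal exons, and Tet2 encodes a dioxygenase that oxidises 5-methylcytosine. Cells of both groups grew in RPMI medium under selection with puromycin (2 µg/ml) and G418 (1 mg/ml). The cytokines were IL-6 and IL-3 (each 10 ng/ml) and stem cell factor (50 ng/ml). Each group had 2 libraries (n = 2). The labels do not say whether replicates came from separate mice or cultures, or how many leukemias each group stands for. The p-values therefore cover only library-to-library spread, which could be technical.

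TRIM proteins usually join a RING finger, which transfers ubiquitin to substrates, to B-boxes, a coiled coil and a C-terminal domain that sets the target. Many members act in innate immunity: some are made in response to interferon, some bind viral capsids or antibodies, and some add ubiquitin to sensors of foreign RNA. Others have unrelated work in chromatin silencing, muscle, the cytoskeleton or centrioles. The comparison asks which members differ in transcript level with the Tet2 label, and sets 16 interferon-inducible TRIM genes, written down from general knowledge, against the rest.

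Tet2 itself was listed at 35.0 and 40.0 TPM in the WT libraries and at 53.5 and 52.8 TPM in the knockout-labelled libraries. TPM are transcript abundances corrected for length and scaled to 1000000 per library. A value for the whole gene cannot check an internal deletion, so directions are drawn by label. Between 11630 and 11731 genes reached 1 TPM per library, and read depth is unknown. Markers of other blood cells moved with the label. By limma, at an adjusted p under 0.05, 18.9% of all tested genes were called higher and 11.6% lower, and the marker counts stand beside these shares. All 14 markers of maturing neutrophils fell, from a summed 47217 and 46592 TPM to 23822 and 24124 TPM. Of 7 measured dendritic cell markers, 5 fell and 2 rose, with sums of 1173 and 1165 against 610 and 615 TPM. Monocyte and macrophage markers went both ways, with 4 of 14 higher and 5 lower, and their sums went from 3142 and 3266 TPM to 2657 and 2634 TPM. Myeloid progenitor markers were present in both groups, with 5 of 13 measured genes higher and 4 lower. Of 9 measured mast cell, basophil and eosinophil markers 2 rose and 6 fell. The whole list still summed to 1938 and 2019 TPM in WT against 2123 and 2053 TPM in the knockout-labelled libraries. Lymphocyte markers summed to between 2.97 and 5.02 TPM, with Cd3e, Ms4a1 and Ncr1 listed at 0 throughout. In bulk RNA, fewer cells of a type and less RNA per cell cannot be told apart, and the part of these shifts in the TRIM values below was not tested.

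Of the 68 members, 38 passed the filter of at least 1 TPM in at least 2 libraries. Another 17 were above 0 somewhere and reached at most 0.99 TPM, and 13 were listed at 0 in every library. The last set included the muscle genes Trim54, Trim55 and Trim63, the germ cell and stem cell gene Trim71, and Trim38 of the interferon-inducible list. Trim28, the corepressor (KAP1) that silences retroelements through KRAB zinc finger proteins, had the highest level. It stood at 148.9 and 138.4 TPM in WT and 142.0 and 151.2 TPM in the knockout-labelled libraries, and the groups overlapped. Its mean lay at percentile 91.5 of all tested genes, and it made up between 16.4% and 18.9% of all TRIM transcripts. The levels of Trim8, a regulator of cytokine and NF-kB signalling, came next, at 47.2 and 48.9 TPM against 49.65 and 51.19 TPM. Trim25 was at nearly the same level as Trim8, and their ranges overlapped in each group. Summed over all members, TRIM transcripts came to 789 and 792 TPM in WT and 866 and 892 TPM in the knockout-labelled libraries.

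**Figure D1:**
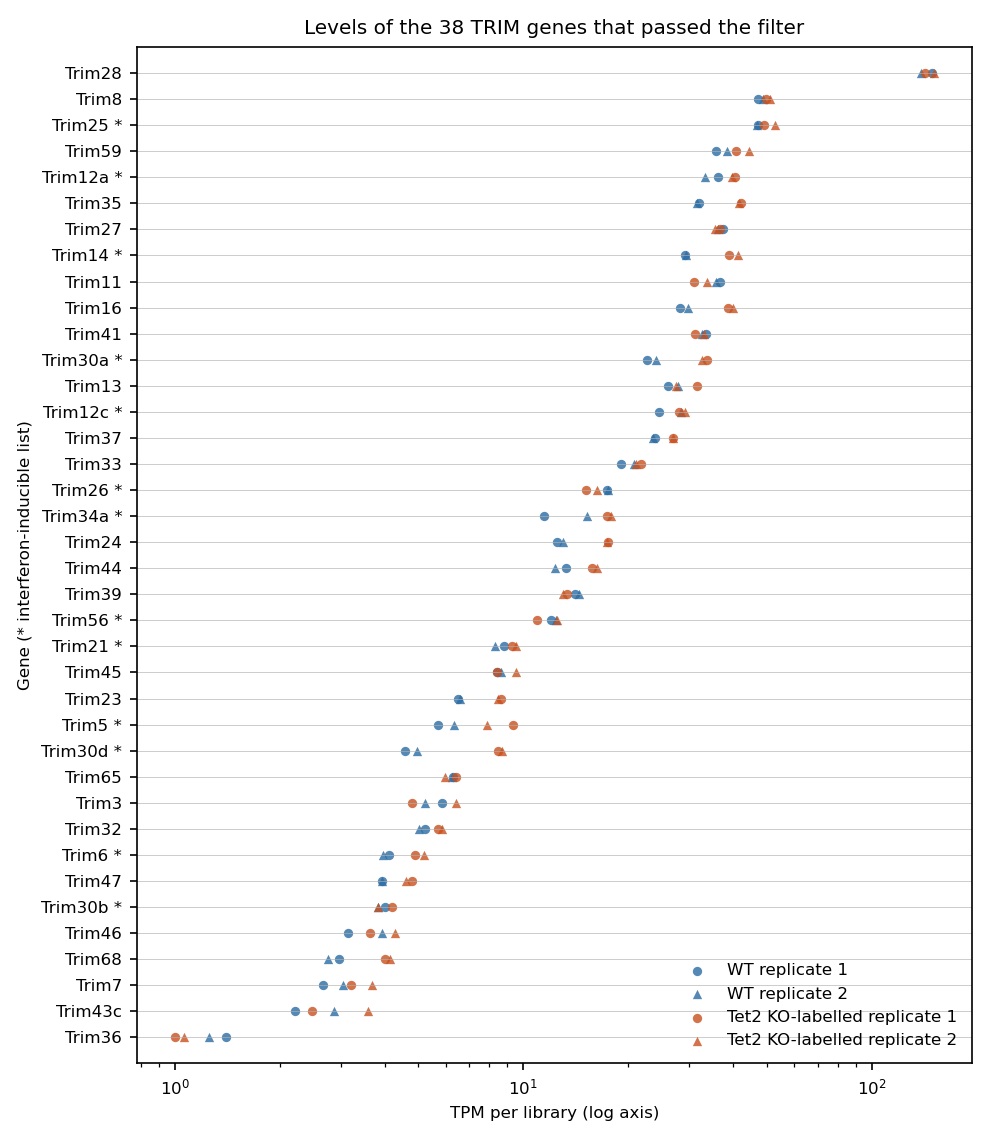
TPM of the 38 TRIM genes that passed the filter, on a log axis, with a point for each of the 4 libraries (blue WT, orange Tet2 knockout-labelled; circle replicate 1, triangle replicate 2). Trim28 lies apart at 138.4 to 151.2 TPM, and the orange points lie right of both blue points for 22 of the 38 genes.

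In the knockout-labelled libraries 12 of the 38 measured members rose and none was called lower. By limma, 2 members were lower at an unadjusted p under 0.05, Trim11 (adjusted p = 0.075) and Trim26 (adjusted p = 0.11), and 16 were higher. The 12 make 31.6% of the measured members. Over all 11837 tested genes 30.5% were called, 18.9% higher and 11.6% lower. The median log2 change, knockout-labelled minus WT on the log2(TPM + 1) scale, was 0.14 for the measured members and 0.04 for all tested genes. Changes of genes with few transcripts are understated on this scale. Both knockout-labelled libraries lay above both WT libraries for 22 members and below them for 4, and 12 overlapped. Over all tested genes these non-overlapping shares were 42.2% above and 26.5% below. Most called changes were small, and 11 of the 12 were under 1.5-fold.

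**Figure D2:**
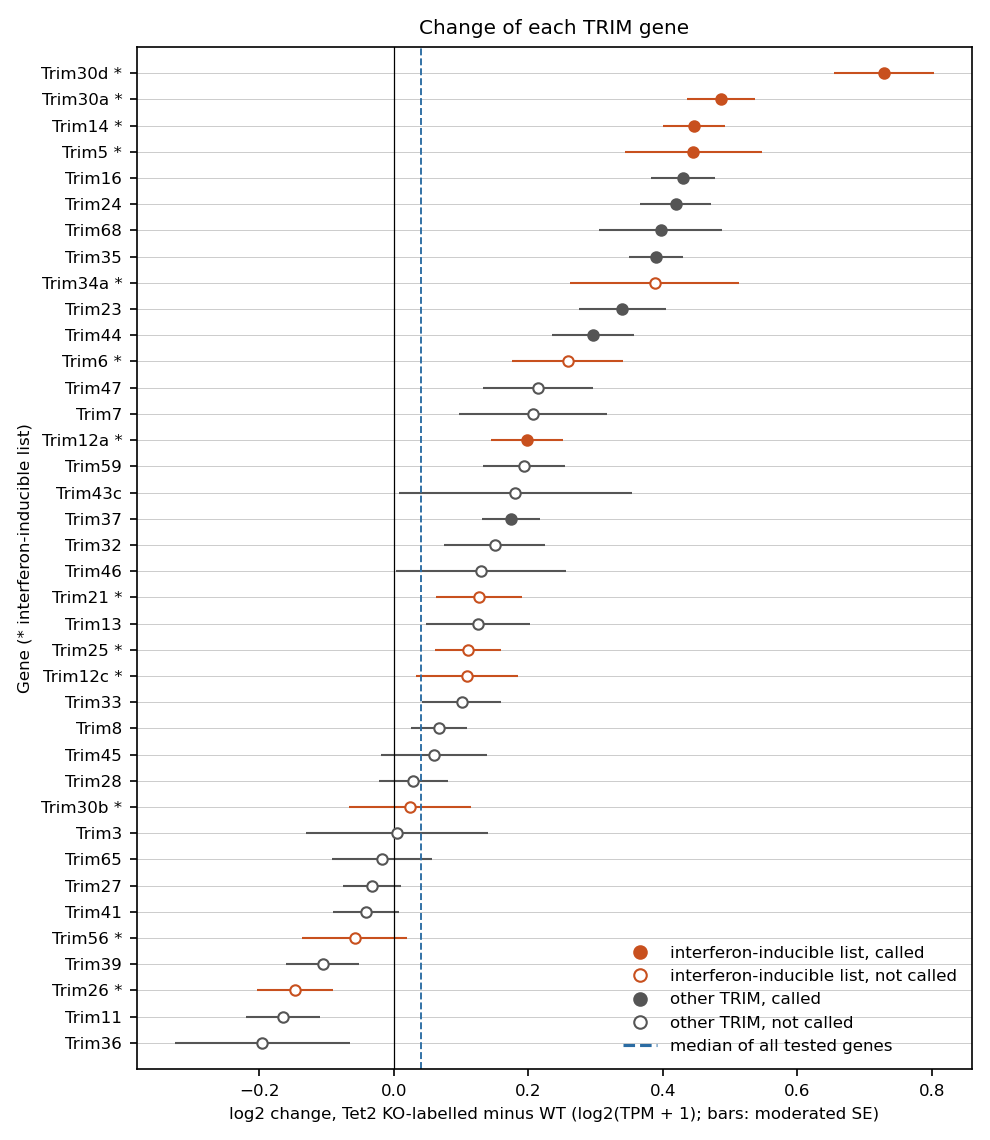
Log2 change (knockout-labelled minus WT, on log2(TPM + 1)) of each of the 38 measured TRIM genes, with the moderated standard error as bars. Orange marks the interferon-inducible list, filled points are called at an adjusted p under 0.05, and the dashed line is the median of all tested genes (0.04). Trim30d has the highest value, 0.73, and called genes of both colours lie between 0.17 and 0.49.

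Of the 16 interferon-inducible genes, 15 were in the table and 13 were measured. Of these, 5 rose (38.5%) and 8 did not pass, with a median change of 0.20. Of the 25 other measured members, 7 rose (28.0%) and 18 did not pass, with a median of 0.13. Over all tested genes 18.9% were called higher, with a median of 0.04. Differences among these shares were not tested. With scaling to the spike-ins both medians stayed above 0, at 0.085 and 0.039, while that of all genes was -0.07. The contrast did not hold without the 7 measured members that share over 10% of their transcripts' 50-base words with other genes. Then 2 of 8 interferon-inducible and 7 of 23 other members were called higher, with medians of 0.12 and 0.13. On a narrower list without Trim5, Trim6, Trim26, Trim38 and Trim56, 4 of 9 measured genes rose, again with a median of 0.20.

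Trim30d had the largest change of the family. Its product belongs to the rodent TRIM30 group, which expanded beside the Trim5 locus. It had 4.59 and 4.96 TPM in WT and 8.45 and 8.68 TPM in the knockout-labelled libraries. The groups lay well apart, with means of 4.78 ± 0.26 and 8.56 ± 0.16 TPM (SD, n = 2), and the log2 change was 0.73 (SE 0.075, adjusted p = 0.0023). Trim30a, a feedback inhibitor of Toll-like receptor signalling, had 22.73 and 24.02 TPM in WT and 33.8 and 32.5 TPM in the knockout-labelled libraries, also without overlap. Its log2 change was 0.49 (SE 0.050, adjusted p = 0.0024). Their neighbour Trim30b was listed at 4.02 and 3.83 TPM in WT and 4.20 and 3.82 TPM in the knockout-labelled libraries. Its groups overlapped (log2 change 0.02, adjusted p = 0.86). The ratio of Trim30d to Trim30b was therefore 1.14 and 1.29 in WT against 2.01 and 2.27 in the knockout-labelled libraries.

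Trim14, an adaptor on mitochondria for antiviral RNA sensing that lacks a RING finger, had 29.2 and 29.3 TPM in WT and 39.1 and 41.3 TPM in the knockout-labelled libraries. The groups did not overlap, and the log2 change was 0.45 (SE 0.046, adjusted p = 0.0024). The gene (chromosome 4, 46493781 to 46536141, minus strand) overlaps Nans, and 33.9% of the 50-base words in its transcripts also occur in other genes' transcripts, mostly those of Nans, all of them on the opposite strand. Nans was at 94.9 and 92.5 TPM in WT and 88.4 and 91.1 TPM in the knockout-labelled libraries. Whether counting used strand was not given in the sources used here.

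Trim5, a relative of the human factor that restricts retroviral capsids, had 5.71 and 6.34 TPM in WT and 9.32 and 7.85 TPM in the knockout-labelled libraries (log2 change 0.45, SE 0.10, adjusted p = 0.026). Its relative Trim12a had 36.3 and 33.4 TPM in WT and 40.55 and 39.64 TPM in the knockout-labelled libraries (0.20, SE 0.054, adjusted p = 0.042). Both pairs of groups lay apart, Trim12a by a smaller ratio. Trim12c, the remaining copy, was at 24.6 and 28.45 TPM against 28.0 and 29.2 TPM, with overlapping groups (0.11, adjusted p = 0.33). The Trim5, Trim12a and Trim12c transcripts share 36.6%, 10.5% and 33.7% of their 50-base words with other genes, mostly with each other. RSEM can have divided reads between them, so their separate values are uncertain.

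The remaining measured genes of the interferon-inducible list did not pass. Trim34a (11.5 and 15.2 against 17.4 and 17.8 TPM) had a wide spread in WT and a log2 change of 0.39 (adjusted p = 0.068). It shares 59.7% of its 50-base words, in part with Trim34b, which was below the filter. Trim6, which builds free ubiquitin chains in interferon signalling, had 4.12 and 3.96 against 4.88 and 5.18 TPM (0.26, adjusted p = 0.066). Trim21, the cytosolic antibody receptor, had 8.78 and 8.32 against 9.31 and 9.54 TPM (0.13, adjusted p = 0.19). Trim25, the ligase that modifies the RNA sensor RIG-I, had 47.4 and 46.8 against 49.1 and 52.9 TPM (0.11, adjusted p = 0.14). These 4 genes had both knockout-labelled libraries above both WT libraries, as did 42.2% of all tested genes, and none was called. The antiviral ligase Trim26 (17.4 and 17.6 against 15.1 and 16.3 TPM, -0.15) lay lower without overlap. Trim56, a ligase of cytosolic nucleic acid sensing, overlapped (12.05 and 12.45 against 10.96 and 12.54 TPM, -0.06, adjusted p = 0.61).

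Position was described next, because 10 of the members sit together on chromosome 7 from 104218793 to 104535361 (GRCm38, 316.6 kb). Of the 8 measured there, 4 rose (Trim30d, Trim30a, Trim5 and Trim12a) and 4 did not pass. No pair of groups lay in the other direction, and 6 of the 8 had both knockout-labelled libraries above both WT libraries. Over all tested genes 18.9% were called higher and 42.2% lay above without overlap, and the difference from these shares was not tested. Of the 6 members on chromosome 17, 2 were measured, Trim26 and Trim39 (14.1 and 14.5 against 13.35 and 13.04 TPM, -0.11, adjusted p = 0.19). Both had each knockout-labelled library below both WT libraries, as did 26.5% of all tested genes, and neither passed. The chromosome 17 group was picked out after its values were seen.

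**Figure D3:**
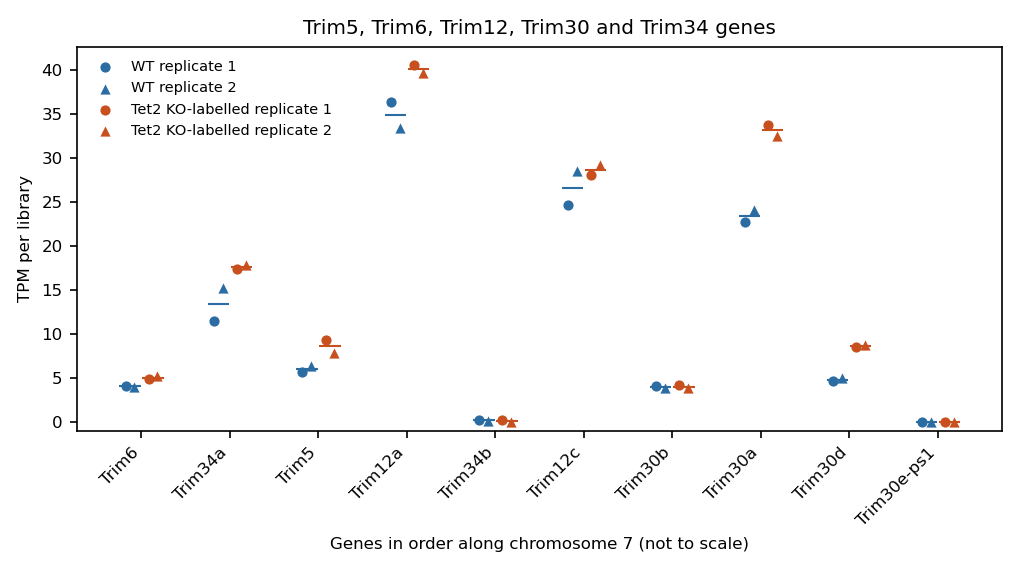
TPM of the 10 TRIM genes of the chromosome 7 cluster, in their order along the chromosome, with a point per library (blue WT, orange Tet2 knockout-labelled) and group means as lines. Trim30a and Trim30d are higher in both orange libraries, Trim30b has overlapping groups, and Trim34b and Trim30e-ps1 are at or near 0.

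Promoters bear on this group because many interferon-inducible genes carry the interferon-stimulated response element. Windows from 250 bases before to 50 after each RefSeq start (GRCm38.p6) were searched on both strands for GAAA, any 2 bases and GAAA again. Overlapping matches were counted separately. Windows existed for 52 of the 68 members and 28 of the 38 measured ones. Among the measured interferon-inducible genes, 8 of 12 held a match, and among the other measured members with a window, 0 of 16 did. Of all genes with a window 3.99% held one, as did 3.44% of all 32851 windows. Of called members with a window 4 of 9 had a match, and of those not called 4 of 19. The called ones were Trim30d and Trim30a, and Trim5 and Trim12a, each pair with nearly the same bases around the match, so they are not independent. The list was written knowing that such genes respond to interferon, so the contrast describes the list. Shown here are up to 30 bases on each side of the match in all 8 genes, along the gene's strand, with the match in capitals, for Trim30a at the start nearest to the Trim30d window in sequence.
Trim30d: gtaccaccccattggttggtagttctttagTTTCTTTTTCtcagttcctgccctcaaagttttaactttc
Trim30a: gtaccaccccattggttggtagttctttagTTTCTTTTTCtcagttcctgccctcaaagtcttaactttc
Trim5: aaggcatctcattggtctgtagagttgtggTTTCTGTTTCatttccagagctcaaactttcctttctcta
Trim12a: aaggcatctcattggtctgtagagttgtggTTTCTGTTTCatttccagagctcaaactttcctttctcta
Trim12c: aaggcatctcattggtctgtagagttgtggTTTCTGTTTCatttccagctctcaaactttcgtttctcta
Trim34a: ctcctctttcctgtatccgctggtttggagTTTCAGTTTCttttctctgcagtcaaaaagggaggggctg
Trim21: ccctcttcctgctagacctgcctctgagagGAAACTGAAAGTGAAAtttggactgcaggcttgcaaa
Trim26: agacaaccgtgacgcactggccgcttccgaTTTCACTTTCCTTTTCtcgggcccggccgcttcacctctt

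The Trim30d window lies at chr7:104507851-104507920 and the Trim30a window at chr7:104465190-104465259, both on the minus strand. They differed at 1 of 70 bases, and the match began 41 and 36 bases upstream of the start. Another RefSeq start of Trim30a also had a match, 2 bases downstream of it (chr7:104446084-104446153), whose window differed from that of Trim30d at 18 of 70 bases when set base against base without gaps. The Trim5 (chr7:104288116-104288185) and Trim12a (chr7:104315446-104315515) windows differed at 0 of 70 bases, and that of Trim12c (chr7:104353339-104353408) at 3 from either. Trim5 rose by 0.45 and Trim12a by 0.20, while Trim12c had 0.11 and did not pass, and these separate values are uncertain because the transcripts share sequence. The Trim34a match (chr7:104244437-104244506) began 10 bases downstream of the start, and the Trim21 window (chr7:102565433-102565499) held 2 overlapping matches from 13 bases downstream. Trim26 also held 2 overlapping matches, 160 bases upstream (chr17:36836956-36837025), and its values were lower. Trim25, Trim6, Trim56 and Trim30b had no match. The RefSeq start of Trim30b lies 11.2 kb from the GENCODE gene start, and only the RefSeq window was searched. Trim14 had no window in the table. The whole window of Trim30d, the member with the largest change, is chr7:104507800-104508099, minus strand.
Trim30d: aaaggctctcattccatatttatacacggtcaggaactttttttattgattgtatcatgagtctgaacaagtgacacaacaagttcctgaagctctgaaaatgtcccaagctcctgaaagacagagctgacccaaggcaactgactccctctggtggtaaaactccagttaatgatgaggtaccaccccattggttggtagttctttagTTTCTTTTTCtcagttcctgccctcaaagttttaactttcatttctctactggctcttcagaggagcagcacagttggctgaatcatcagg

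Outside the interferon-inducible list, 7 members rose. Trim24, a chromatin reader with a PHD finger and bromodomain that acts on nuclear receptors, had 12.53 and 13.04 TPM in WT and 17.5 and 17.4 TPM in the knockout-labelled libraries. The groups lay apart, with means of 12.8 ± 0.36 and 17.4 ± 0.057 TPM (SD, n = 2), and the log2 change was 0.42 (SE 0.053, adjusted p = 0.0043). Its relatives Trim28 (0.03, adjusted p = 0.70) and Trim33 (19.1 and 20.8 against 21.7 and 21.1 TPM, 0.10, adjusted p = 0.25) did not pass. The ratio of Trim24 to Trim28 was 0.084 and 0.094 in WT against 0.123 and 0.115 in the knockout-labelled libraries.

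Trim16, a member without a RING finger that takes part in the response to damaged lysosomes, had 28.2 and 29.8 TPM in WT and 38.8 and 40.0 TPM in the knockout-labelled libraries (0.43, SE 0.048, adjusted p = 0.0030). Trim35, also known as hematopoietic lineage switch 5, had 32.1 and 31.6 against 42.3 and 41.7 TPM (0.39, SE 0.040, adjusted p = 0.0023). Neither gene overlapped between groups, and both were at levels close to that of Trim14. Trim44, which has a B-box but no RING finger, had 13.3 and 12.4 against 15.7 and 16.3 TPM (0.30, SE 0.060, adjusted p = 0.019). Together with Trim14, the 3 measured members without a RING finger all rose, against 18.9% of all tested genes called higher. That difference was not tested. The call of Trim44 was lost in 5 of 17 alternatives. The other members of that short list, Trim29 and Trim66, were below the filter. The list took only numbered Trim symbols. Of the measured proteins of TRIM build under other symbols, 2 rose, 1 fell (Mefv, -1.50) and 1 did not pass, and they were not sorted by RING finger. Trim29 was called lower when no filter was used (-0.63).

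Trim23, which carries an ARF-type GTPase domain, had 6.5 and 6.6 TPM in WT and 8.62 and 8.49 TPM in the knockout-labelled libraries (0.34, SE 0.065, adjusted p = 0.015). Trim37, a MATH-domain ligase that limits centriole assembly, had 23.9 and 23.6 against 26.9 and 27.0 TPM (0.17, SE 0.043, adjusted p = 0.032). Trim68 had 2.96 and 2.76 against 4.02 and 4.14 TPM (0.40, SE 0.091, adjusted p = 0.026). All of these had groups that did not overlap, and the change of Trim37 was the smallest of the called members.

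By C-terminal domain, the SPRY class, which binds capsids, antibodies and other partners, held most measured members. Of its 23, 8 rose (34.8%) and 15 did not pass (median 0.20). Over all tested genes 18.9% were called higher, with a median of 0.04, and differences from these values were not tested. In the PHD-bromodomain class 1 of 3 rose, and in the class with a MATH, ARF or filamin domain 2 of 3. Of the members with no further C-terminal domain, Trim44 rose while Trim8 and Trim56 did not pass. Neither measured COS-box member (Trim36 and Trim46, linked to microtubules), NHL-repeat member (Trim3 and Trim32) or transmembrane member (Trim13 and Trim59) passed. Their log2 changes were -0.20 for Trim36, 0.13 for Trim46, 0.0049 for Trim3, 0.15 for Trim32 and 0.13 for Trim13. The filamin-domain member Trim45 had 0.06 and did not pass either. Trim59 had 35.7 and 38.6 against 40.9 and 44.4 TPM without overlap (0.19, adjusted p = 0.065). Trim11 had 36.8 and 35.7 against 30.9 and 33.7 TPM, also without overlap (-0.16). The other SPRY members that did not pass, Trim7, Trim27, Trim39, Trim41, Trim43c, Trim47 and Trim65, had log2 changes between -0.11 and 0.21.

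The 12 calls differed in how they held. Trim14, Trim16, Trim24, Trim30a, Trim30d and Trim35 were called under all 17 alternatives fitted, among them each left-out library and scaling to the spike-ins. The other 6 were each lost in at least 5, and no called member changed sign. Without knockout-labelled replicate 1 all of these 6 were lost, with log2 changes of 0.18 for Trim12a and Trim37, 0.32 for Trim44 and 0.33 for Trim23 and Trim5. Without knockout-labelled replicate 2 Trim12a, Trim37, Trim44, Trim23 and Trim68 were lost. Without WT replicate 1 the log2 change was 0.18 for Trim37, 0.33 for Trim23, 0.38 for Trim5 and 0.43 for Trim68, and these calls were lost. Without WT replicate 2 it was 0.14 for Trim12a, 0.17 for Trim37, 0.25 for Trim44 and 0.36 for Trim68, also lost. Trim34a (0.58) and Trim59 (0.25) were then called. Scaling to the spike-ins lowered the median of all genes by 0.11 and left 6 of the 12 calls, with 29.9% of all called genes higher in place of 62.0%. With trimmed-mean scaling that share was 48.6%, 10 members were higher and Trim11 was called lower (-0.21, adjusted p = 0.040).

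**Figure D4:**
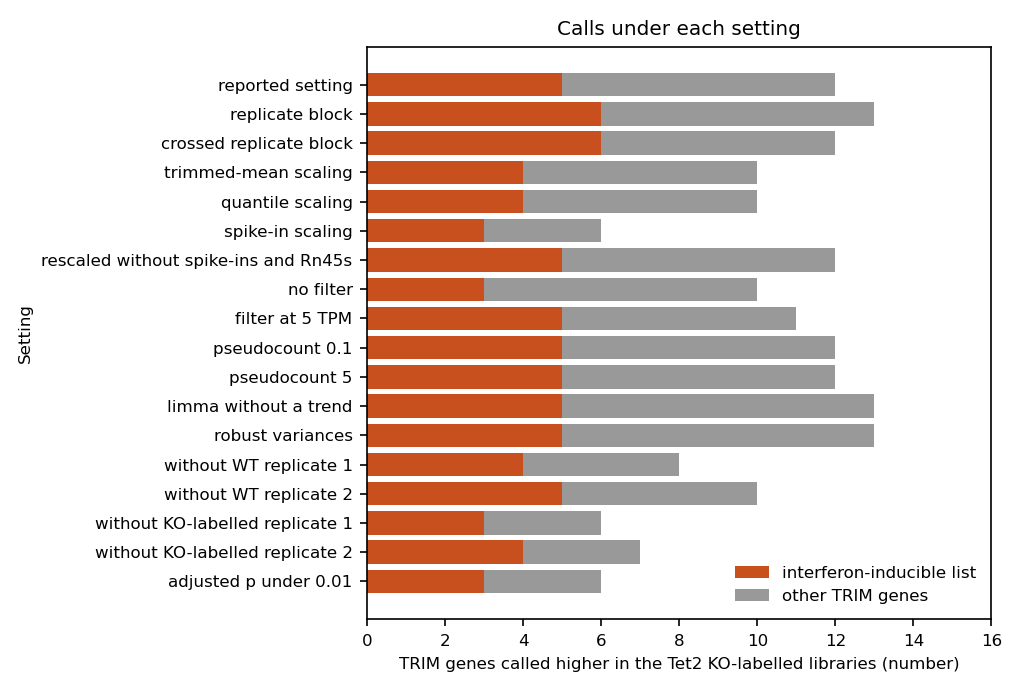
Number of TRIM genes called higher in the knockout-labelled libraries under the reported setting and each alternative fit, as stacked bars (orange interferon-inducible list, grey other TRIM genes). The total is 12 as reported and between 6 and 13 elsewhere, and every bar holds genes of both kinds.

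Proteins of TRIM build whose symbols follow no number were compared from a list of 7, of which 4 were measured. Mid1, a microtubule-bound TRIM ligase, rose from 29.7 and 34.6 to 52.1 and 57.0 TPM (0.75, SE 0.084, adjusted p = 0.0031), a change similar in size to that of Trim30d. Pml, the scaffold of nuclear bodies and itself interferon-inducible, rose from 39.6 and 42.3 to 48.5 and 49.5 TPM (0.25, adjusted p = 0.014). Mefv, which encodes pyrin, an inflammasome sensor of mature myeloid cells, fell from 2.51 and 2.90 to 0.24 and 0.38 TPM (-1.50, SE 0.14, adjusted p = 0.0019). Mefv moved in the direction of the neutrophil markers above, whose part in it was not tested. Bspry did not pass (0.23, adjusted p = 0.29).

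Genes that work with TRIM proteins in nucleic acid sensing and interferon signalling were taken as a list of 29 symbols, 26 of them in the table and all measured. The symbols not found, Rigi, Sting1 and Cgas, are other names of Ddx58, Tmem173 and Mb21d1, which were measured. Of the 26 measured genes 11 rose (42.3%, against 18.9% of all tested genes), 1 fell and 14 did not pass, with a median of 0.17. The deconjugase Usp18 (0.88, adjusted p = 0.0023), the transcription factor Irf7 (0.65, adjusted p = 0.0011), the RNA sensor Ddx58 (RIG-I, 0.44, adjusted p = 0.0024) and Irf9 (0.44, adjusted p = 0.0028) had the smallest p. Ddx58 went from 22.0 and 21.8 to 30.7 and 29.6 TPM, while its ligase Trim25 did not pass. The adaptor Mavs, partner of Trim14, rose by 0.26 (adjusted p = 0.016), and the kinase Ikbke fell by 0.31 (adjusted p = 0.0053). Stat2 (0.17, adjusted p = 0.065) did not pass.

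Ubiquitin-activating and ubiquitin-conjugating enzymes, which charge TRIM ligases, mostly did not pass: 2 of 16 measured rose (12.5%) and 14 did not pass (median 0.08). Ube2w, which attaches ubiquitin to N-termini, rose by 0.34 (adjusted p = 0.033) and Uba6 by 0.19 (adjusted p = 0.040). Of 21 measured partners of Trim28 in corepressor complexes, 5 rose (23.8%, against 18.9% of all tested genes), 1 fell and 15 did not pass (median 0.08). Chd3, the remodeller that binds its PHD-bromodomain, rose by 0.46 (adjusted p = 0.0012), Mta1 by 0.34 (adjusted p = 0.0050), Atf7ip by 0.25 (adjusted p = 0.0087) and Gatad2b by 0.24 (adjusted p = 0.012), while Mbd3 fell by 0.15 (adjusted p = 0.025). The histone methyltransferase Setdb1, through which Trim28 silences targets, had 0.10 (adjusted p = 0.11).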

How the data were processed

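RNA-seq was measured in 4 libraries, 2 labelled WT and 2 labelled Tet2 knockout, grouped by their titles. The authors deposited a single table of TPM, a unit inferred here because every library adds up to 1000000. RSEM, STAR and mm10 are named, per the submitters' processing notes. Versions, annotation and the strandedness of counting are not given in the sources used here. TPM keep no depth, so no counting interval or floor was given. The 92 spike-in rows share the total and were left out of tests. The filter asked for 1 TPM or more in 2 or more libraries and passed 11837 genes. Log2(TPM + 1) was compared with limma 3.58.1 in R 4.3.3 (variance trend, all 4 libraries, no replicate block), with a two-sided p and Benjamini-Hochberg adjustment over all tested genes and a threshold of 0.05. An exact permutation test of 2 against 2 cannot go below p = 0.333, so calls rest on the spread pooled across genes. The fit was also run on simulated data in which far fewer genes changed than were called here. That run does not show how reliable these calls are.

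Members and lists were chosen with earlier results of these data known. Named with every library's value were called members, measured interferon-inducible members and the 4 members with the highest level. Trim33 was also given with every library's value. Up to 4 genes of each further list, those with the smallest p, were named with their log2 change and some with library values. A few others (Mavs, Ikbke, Stat2, Mbd3, Setdb1, Nans, Trim11, Trim39) were named after their values were seen. Coordinates and shared 50-base words came from GENCODE release M21 on GRCm38, the words over both strands of all transcripts, and 50 was set here because read length was not given. Promoter windows came from RefSeq (GRCm38.p6). Of 66 member windows, 56 ended in 30 bases found in the gene's own transcripts as printed and 0 in reverse. Alternatives were a replicate block, other scalings, filters, pseudocounts, variance models, a stricter threshold, each library left out and a narrower list. A crossed block and leaving out 14 members that share over 10% of their words were added after seeing the data.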

Additional observations from a re-analysis of the deposited data

How the results depend on the processing

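The 12 higher members became 6 with spike-in scaling (3 interferon-inducible and 3 other), and 6 at an adjusted p under 0.01 (3 and 3). Without single libraries they numbered 6 to 10 (3 to 5 interferon-inducible, 3 to 5 other). With no filter 3 interferon-inducible genes were higher and 1 other member, Trim29, was lower. Without members sharing over 10% of their 50-base words 2 of 8 interferon-inducible and 7 of 23 other members were higher (medians 0.12 and 0.13). With trimmed-mean scaling 1 other member was lower. The median change of the other members was 0.0945 with trimmed-mean scaling, 0.0392 with spike-in scaling, 0.0599 with no filter, 0.10 with a filter at 5 TPM, 0.16 and 0.0896 with pseudocounts of 0.1 and 5, and 0.0816 to 0.18 without single libraries. All genes called higher and lower numbered 634 and 1485 with spike-in scaling, 839 and 666 at an adjusted p under 0.01, and 628 to 2190 and 602 to 1065 without single libraries.

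Members that changed sign were not called in either setting. With spike-in scaling Trim28 (-0.0862), Trim8 (-0.047), Trim25 (-0.0033), Trim12c (-0.0032), Trim33 (-0.01), Trim45 (-0.0446), Trim3 (-0.0943) and Trim30b (-0.0697) did, with trimmed-mean scaling Trim28 (-0.0154), Trim3 (-0.0335) and Trim30b (-0.0122), and with quantile scaling Trim3 (-0.027). Without single libraries the values ranged from -0.0227 to 0.0816 for Trim28, -0.17 to 0.18 for Trim3, -0.0308 to 0.0787 for Trim30b, -0.085 to 0.0039 for Trim41, -0.15 to 0.0314 for Trim56, -0.0228 to 0.14 for Trim45, -0.0639 to 0.0285 for Trim65 and -0.0207 to 0.38 for Trim43c. The cause was not tested. With the replicate block 13 members were called higher and 0 lower, with Trim34a (adjusted p = 0.045) and Trim59 (adjusted p = 0.036) gained and Trim37 lost (adjusted p = 0.058). The differences between replicates 1 and 2 correlated between groups at r = -0.11 over genes, so the numbers were not taken as a pairing. With the pairing crossed 12 members were called higher, and 3463 genes in all were called against 3071 with the block and 3606 without it.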

Other observations

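Among members below the filter, Trim58 and Trim29 were the 2 called when no filter was used, in opposite directions. Trim58, a ligase of late red cell maturation, had 0.33 and 0.24 TPM in WT and 0.99 and 0.69 TPM in the knockout-labelled libraries. With no filter it was called higher (log2 change 0.51, adjusted p = 0.048), beside summed erythroid markers of 145.3 and 139.4 TPM in WT against 212.7 and 235.2 TPM. The 3 measured erythroid markers went both ways: Hbb-bt was called higher, Gata1 lower and Hba-a1 did not pass, with a median log2 change of -0.58. Hbb-bs was listed at 0 in every library, and the part of red cell markers in the Trim58 value was not tested. Trim29, an epithelial and macrophage member without a RING finger, had 0.62 and 0.83 TPM in WT and 0.17 and 0.06 TPM in the knockout-labelled libraries. With no filter it was called lower (-0.63, adjusted p = 0.026). Both genes were picked out after their values were seen, and all their values are under 1 TPM.

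The rows of Trim14 and Trim21 do not stand with the other TRIM rows in the deposited table. They lie in a run of 39 rows from Ifi30 to Xaf1 that sits between the histone genes H2al1f and H2al1g. Most other names of the run, such as Ifit3, Isg15, Mx1 and Oas2, are known interferon-stimulated genes, although Kif5c, Lmo2 and Rgl1 are there too. Of these 39 genes 37 were measured, 25 were called higher (67.6%) and 12 did not pass, with a median log2 change of 0.38. Over all tested genes 18.9% were called higher, with a median of 0.04, and the difference was not tested. The labels do not say why these rows stand together.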
